A study of Mus musculus with 5 samples.

Results

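Molecular chaperones and the folding enzymes of the endoplasmic reticulum (ER) were examined in RNA sequencing of sorted CD8 T cells of the mouse, the killer lymphocytes of antiviral and anti-tumour immunity. The set was a fixed list of 37 gene names. Its rule used no measured value, but the genes were chosen with earlier results of these data known. Of these, 36 had a row in the deposited table of 11564 genes, 17 acting in the ER, 8 in the cytosol, 4 in mitochondria and 7 as subunits of the cytosolic chaperonin CCT. Hspa1a was not analysed here. The design set 3 libraries of genotype PHD2-deltaT, described as a PHD2 knockout, against 2 libraries of genotype WT. The labels give no strain, age, treatment, Cre driver or number of animals. Nothing says that each library is a separate animal or culture, and p-values then reflect only how these samples spread, which may be technical.

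Proteins that enter the ER are folded by the Hsp70 chaperone BiP, by the lectins calnexin and calreticulin, and by protein disulfide isomerases, which pass disulfide bonds on and are reoxidised by Ero1 oxidases. When unfolded proteins build up, the ER stress sensors raise the transcription of these genes, a programme called the unfolded protein response. In the cytosol, heat shock factors control Hsp70 and Hsp90 chaperones, while the CCT ring folds actin and tubulin. PHD2, encoded by Egln1, uses oxygen to hydroxylate the HIF transcription factors, which are then destroyed. Ero1l is known as a HIF target in mammalian cells.

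Values were the authors' normalized counts, with library totals of 19593220 to 20253007. The reads inferred behind them numbered 10818533 to 15382182. Egln1, the targeted gene, had 5447, 4327 and 4993 normalized counts in PHD2-deltaT, against 1927 and 2182 in WT, so it was higher where the label names its loss. Its log2 fold change was 1.26 ± 0.09 (SE; limma-trend, adjusted p = 2.86e-07). Values summed over a whole gene do not tell deleted exons from retained ones, so PHD2-deltaT below always means the libraries that carry this label. All 7 CD8 T cell markers had a row, with Cd8a at 15829 to 17936 in PHD2-deltaT, against 16444 and 17489 in WT. Of these markers Cd2 was called higher (log2 fold change 0.39, adjusted p = 0.00524), and Cd3e (-0.15) and Cd3g (-0.12) were not called, with groups that did not overlap. In bulk samples, fewer cells of a type and less RNA per cell cannot be told apart.

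Of the 36 genes, 1 changed between the genotypes: the ER oxidase Ero1l was higher in PHD2-deltaT. No gene was lower. A gene was called at an adjusted p under 0.05 in limma-trend, with Benjamini-Hochberg adjustment over the 11534 genes tested. Over all genes tested, 4.0% (461 genes) were called in either direction and 2.97% were called higher. The share among chaperone and folding genes, 1 of 36, lay near that background. The median log2 fold change was -0.00 over the 36 genes and -0.01 over all genes tested. An unadjusted p under 0.05 was reached by 4 of the 36 genes and by 1731 of all genes tested. PHD2-deltaT and WT values did not overlap for 10 of the 36 genes (27.8%), 6 of them higher and 4 lower, beside 30.5% of all genes tested.

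The limits on a change were narrow for most of the set. For 31 of the 36 genes the 95% confidence interval of the fold change lay wholly within 1.25-fold in either direction. This held for 5405 of 11534 genes tested, and for 4980 of the 6764 tested genes with a mean at or above that of the least abundant chaperone or folding gene other than Hspa1b. Outside that range were Ero1l, Herpud1, P4hb, Dnajb1 and Hspa1b. With a range of 1.5-fold, the intervals of 34 genes lay inside, and those of Ero1l and Hspa1b did not.

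**Figure D1:**
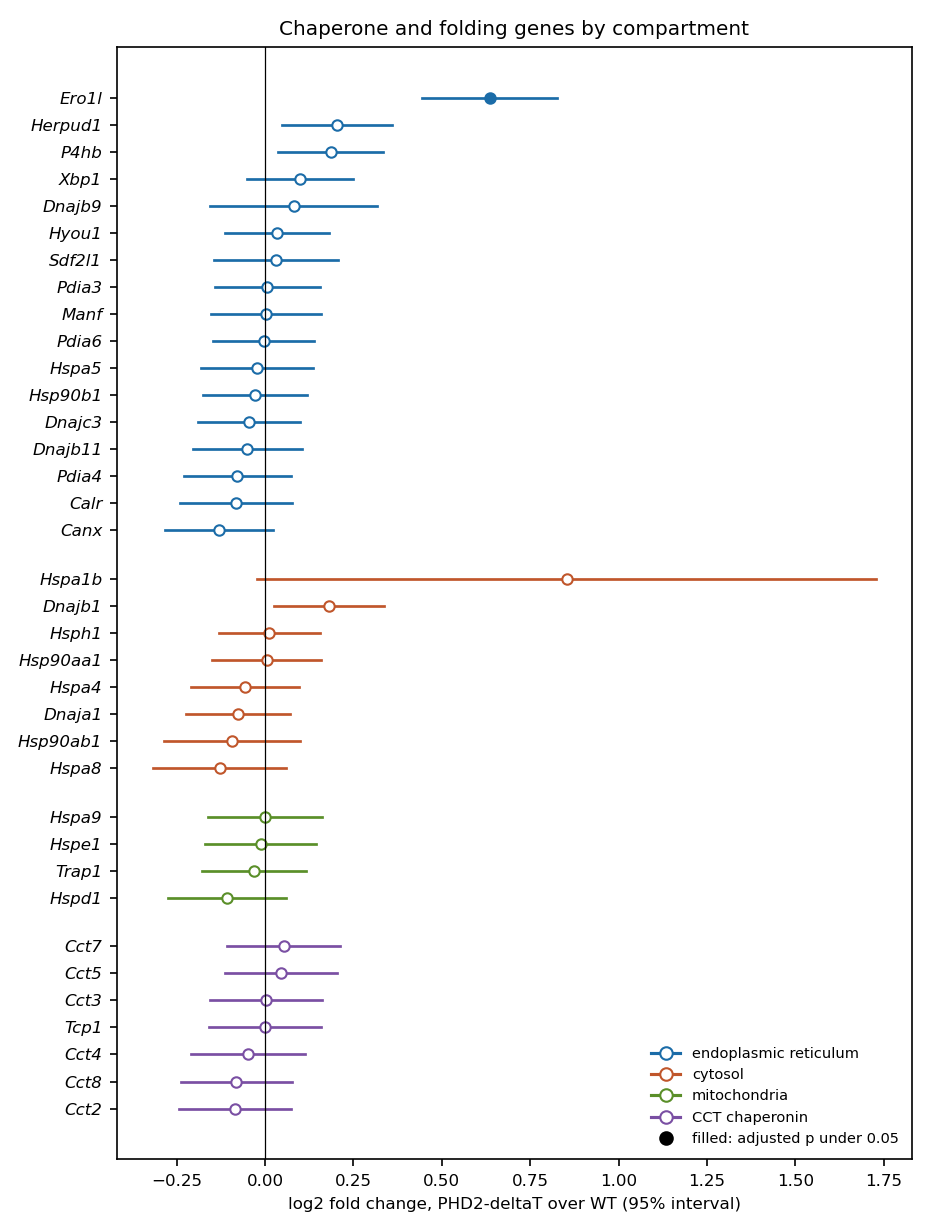
Log2 fold change of each chaperone and folding gene, PHD2-deltaT over WT, on the log2(normalized count + 1) scale, with 95% confidence intervals, grouped by compartment. Filled points passed an adjusted p of 0.05 in limma-trend. Ero1l, at 0.64, is the filled point, and Hspa1b has the widest interval, from -0.02 to 1.73.

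Ero1l encodes the oxidase that takes electrons from protein disulfide isomerase and passes them to oxygen. The gene (ENSMUSG00000021831, named Ero1a in RefSeq) lies on the minus strand of mm10 chromosome 14 from 45283087 to 45318771, with 18 exon blocks, none sharing bases with another gene. Its normalized counts were 2803, 2338 and 2454 in PHD2-deltaT, against 1505 and 1753 in WT. All 3 PHD2-deltaT libraries lay above both WT libraries. The means were 2532 ± 242 (SD, n = 3) in PHD2-deltaT and 1629 ± 175 (SD, n = 2) in WT. The log2 fold change was 0.64 ± 0.09 (SE), with a 95% interval from 0.44 to 0.83 (limma-trend, adjusted p = 0.000348), or 1.55-fold on the mean counts. The authors' deposited table gave it a log2 fold change of -0.55, there as WT over PHD2-deltaT, with an FDR of 6.41e-08. An FDR under 0.05 and a cut on the size of the log2 fold change were applied here to that table. They selected 151 of its 11564 genes. Ero1l was the 1 gene of the 36 among them, and it passed the size cut by a small margin. With 1 library left out, its log2 fold change ran from 0.53 to 0.75 with adjusted p of at most 0.0111, but limma without the mean-variance trend did not call it (adjusted p = 0.115). Ero1lb, the sister oxidase, had 0.04 ± 0.13 on that scale (SE; adjusted p = 0.939). The difference between the sister genes was not tested.

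The promoter windows of Ero1l and of P4hb, the isomerase it reoxidises, are shown because HIF binds the core letters ACGTG and GCGTG. The sequences are RefSeq windows on GRCm38.p6 (the same coordinates as mm10), from 250 bases before to 50 after the annotated start, written along the gene. Capitals mark each match to a core on either strand, so CACGT and CACGC are matches on the opposite strand. The Ero1l window lies at chr14:45318523-45318822 (minus strand) and that of P4hb at chr11:120573204-120573503 (minus strand).
Ero1l: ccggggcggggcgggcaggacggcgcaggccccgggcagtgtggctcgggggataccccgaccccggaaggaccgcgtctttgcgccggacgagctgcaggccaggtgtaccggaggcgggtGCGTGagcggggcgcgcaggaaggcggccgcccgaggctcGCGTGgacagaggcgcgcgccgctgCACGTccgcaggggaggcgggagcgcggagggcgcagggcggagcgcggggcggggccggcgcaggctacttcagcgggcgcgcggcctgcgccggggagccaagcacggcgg
P4hb: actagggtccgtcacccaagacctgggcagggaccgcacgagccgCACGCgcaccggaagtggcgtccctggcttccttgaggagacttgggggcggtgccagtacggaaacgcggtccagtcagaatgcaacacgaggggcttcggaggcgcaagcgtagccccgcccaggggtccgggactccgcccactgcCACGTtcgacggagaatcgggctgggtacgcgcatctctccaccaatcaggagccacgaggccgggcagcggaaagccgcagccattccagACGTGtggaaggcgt
Each window held 3 matches. At least 1 core was found in 30 of the 36 windows of the 29 chaperone and folding genes matched in RefSeq, and in 43.8% of all 32851 windows of the same length. In the ER genes it was found in 13 of 15 windows. Ero1l was the 1 called gene and has 1 window, so nearly all windows with a core had to belong to uncalled genes. These counts cannot relate a core to a call. A match is a description of letters, not a binding site.

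P4hb and Herpud1 followed Ero1l by p among the ER genes, and neither was called. P4hb encodes protein disulfide isomerase itself, which is also the beta subunit of collagen prolyl hydroxylase. Its normalized counts were 17949, 17731 and 17706 in PHD2-deltaT, against 15801 and 15504 in WT. The groups did not overlap, and the libraries within each differed little, with means of 17796 ± 134 (SD, n = 3) and 15653 ± 210 (SD, n = 2). The log2 fold change was 0.19 ± 0.07 (SE; limma-trend, adjusted p = 0.185), and the authors' deposited table gave an FDR of 0.0858. Herpud1 encodes an ER membrane protein of the machinery that degrades misfolded proteins. Its normalized counts were 2126, 2252 and 2056 in PHD2-deltaT, against 1890 and 1832 in WT, again without overlap. The log2 fold change was 0.20 ± 0.07 (SE; adjusted p = 0.166).

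**Figure D2:**
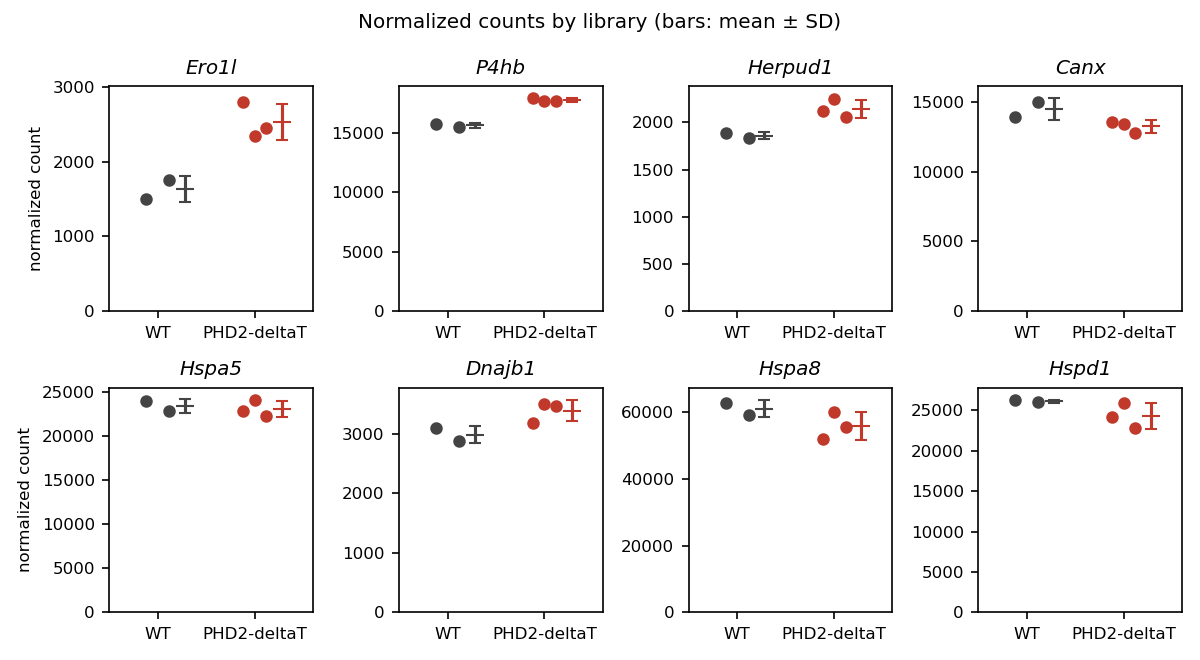
Normalized count of 8 genes in each of the 5 libraries, 3 PHD2-deltaT and 2 WT, with a horizontal line at each group mean. Error bars show ± SD (n = 3 and n = 2). Ero1l shows the widest gap between the groups, P4hb a small gap with tight groups, and Hspa5 overlapping groups.

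The chaperones that define the unfolded protein response had close levels in both genotypes. Hspa5, which encodes BiP and is the usual marker gene of that response, had 22834, 24009 and 22258 normalized counts in PHD2-deltaT, against 23926 and 22845 in WT. The groups overlapped, and the log2 fold change was -0.02 ± 0.07 (SE) with a 95% interval from -0.18 to 0.14. Hsp90b1, the ER member of the Hsp90 family, had a log2 fold change of -0.03. Xbp1, the transcription factor made active by splicing of its message, had 0.10 (limma-trend, adjusted p = 0.601). Its PHD2-deltaT values lay above both WT values. The gene-level table does not separate its spliced form. The partners of BiP ranged from -0.05 to 0.08 in log2 fold change. They were the J-domain proteins Dnajb9, Dnajb11 and Dnajc3, the J-protein partner Sdf2l1, the exchange factor Hyou1 and the secreted factor Manf. The groups of Dnajc3 did not overlap, with PHD2-deltaT lower, and those of the other partners overlapped.

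The remaining isomerases and the lectins also gave no call. Pdia3, which works with the lectins on glycoproteins, had a log2 fold change of 0.01, Pdia6 -0.00 and Pdia4 -0.08. Calr, the soluble lectin calreticulin, had -0.08. Canx, the membrane lectin calnexin, had 13594, 13398 and 12760 normalized counts in PHD2-deltaT, against 13965 and 15042 in WT. Its groups did not overlap, and the log2 fold change was -0.13 ± 0.07 (SE; adjusted p = 0.444). Over the 17 ER genes the median log2 fold change was 0.00, with 9 positive and 8 negative values. Their summed normalized counts were 140260 ± 2792 (SD, n = 3) in PHD2-deltaT and 140100 ± 2145 (SD, n = 2) in WT, a difference of 0.114% of the WT mean.

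The windows of Hspa5 and Herpud1 are shown because they hold the letters that define ER stress elements. The first element is CCAAT, any 9 bases, then CCACG, and the second is ATTGG, any 1 base, then CCACG, both searched on both strands. Capitals mark the element. The Hspa5 window lies at chr2:34771840-34772139 (plus strand) and that of Herpud1 at chr8:94386179-94386478 (plus strand).
Hspa5: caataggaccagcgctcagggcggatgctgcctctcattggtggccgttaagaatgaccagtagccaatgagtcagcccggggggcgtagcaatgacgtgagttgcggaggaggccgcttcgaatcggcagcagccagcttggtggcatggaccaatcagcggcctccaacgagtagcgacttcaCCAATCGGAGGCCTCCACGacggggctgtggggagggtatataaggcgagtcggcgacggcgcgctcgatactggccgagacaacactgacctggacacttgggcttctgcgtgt
Herpud1: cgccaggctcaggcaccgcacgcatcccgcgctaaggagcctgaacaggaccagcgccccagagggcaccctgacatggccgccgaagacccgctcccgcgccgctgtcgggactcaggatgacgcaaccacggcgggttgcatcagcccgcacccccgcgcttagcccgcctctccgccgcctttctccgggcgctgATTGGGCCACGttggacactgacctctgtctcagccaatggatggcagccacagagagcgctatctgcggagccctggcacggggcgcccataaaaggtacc
The first element was found in the windows of Hspa5, Hsp90b1, Calr, Canx, Dnajc3 and Pdia6, 6 of 15 ER windows and 0.119% of all windows. The second was found in those of Herpud1 and Dnajb11, against 0.0365% of all windows. None of these 8 genes was called (limma-trend), and their log2 fold changes ran from -0.13 for Canx to 0.20 for Herpud1. An unadjusted p under 0.05 was reached by Herpud1, at 0.0141, and by none of the other 7.

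None of the 8 cytosolic chaperones measured was called by limma-trend, and 1 had an unadjusted p under 0.05. That gene, Dnajb1, encodes the main stress-inducible J-domain partner of Hsp70. Its normalized counts were 3191, 3512 and 3470 in PHD2-deltaT, against 3095 and 2888 in WT. The groups did not overlap, and the log2 fold change was 0.18 ± 0.07 (SE; adjusted p = 0.237). Hspa8, the constitutive Hsp70, had 51944, 60149 and 55648 in PHD2-deltaT, against 62864 and 59214 in WT, and its groups overlapped (log2 fold change -0.13 ± 0.09 SE, adjusted p = 0.580). Hsp90ab1, the constitutive Hsp90, had a log2 fold change of -0.09 and Hsp90aa1, the inducible Hsp90, 0.00. Hspa4 and Hsph1, exchange factors for Hsp70, had -0.06 and 0.01, and the J-domain protein Dnaja1 had -0.08.

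Hspa1b, the strongly stress-inducible Hsp70, sat at the bottom of the table. Its normalized counts were 23.5, 22.3 and 22.0 in PHD2-deltaT, against 8.05 and 17.8 in WT. The PHD2-deltaT libraries lay close together above both WT libraries, which differed widely. The log2 fold change was 0.85 ± 0.41 (SE; adjusted p = 0.348) and its 95% interval ran from -0.02 to 1.73. The value went to 0.32 without WT replicate 1 and to 1.38 without WT replicate 2. Hspa1a is a near-identical copy and the handling of reads that match both is not given in the sources used here, so this value is uncertain.

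The summed cytosolic chaperones were 201518 ± 7993 normalized counts (SD, n = 3) in PHD2-deltaT and 213246 ± 6889 (SD, n = 2) in WT. The means differed by -5.50% of the WT mean, and the library sums of the groups overlapped. As a share of each library's total the groups did not overlap, at 0.988% to 1.034% in PHD2-deltaT and 1.052% to 1.084% in WT. Hsp90ab1 and Hspa8 made up most of these sums. Hsp90ab1 alone had 91674, 98121 and 96773 in PHD2-deltaT, against 105667 and 98261 in WT. The highest PHD2-deltaT library lay just under the lower WT library.

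No mitochondrial chaperone was called in limma-trend, and none of the 4 had an unadjusted p under 0.05. Hspd1, the chaperonin Hsp60, had 24120, 25919 and 22817 normalized counts in PHD2-deltaT, against 26260 and 26000 in WT. Its groups did not overlap, and the log2 fold change was -0.11 ± 0.08 (SE; adjusted p = 0.611). Hspe1, the lid of that chaperonin, had 6166, 7032 and 6433 in PHD2-deltaT, against 6456 and 6729 in WT. These overlapped, with a log2 fold change of -0.01. The pair lies head to head on mm10 chromosome 1, Hspd1 from 55077835 to 55088243 on the minus strand and Hspe1 from 55088132 to 55091307 on the plus strand. The genes overlap each other over 4.24% of the exon bases of Hspd1 and 7.60% of those of Hspe1. Trap1, the mitochondrial Hsp90, had 4596, 4564 and 4258 in PHD2-deltaT, against 4634 and 4507 in WT (log2 fold change -0.03). Hspa9, the mitochondrial Hsp70, had a log2 fold change of -0.00.

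The 7 measured CCT subunits, which assemble into a double ring, gave no call. None passed the threshold in limma-trend and none had an unadjusted p under 0.05. For 7 of 7 the PHD2-deltaT and WT values overlapped, and the log2 fold changes ran from -0.09 for Cct2 to 0.05 for Cct7. Cct2 had 19224, 20933 and 19240 normalized counts in PHD2-deltaT, against 21236 and 20743 in WT. Cct8 had 16046, 17167 and 15445 in PHD2-deltaT, against 16874 and 17410 in WT. Cct7 had 19526, 21471 and 20445 in PHD2-deltaT, against 20247 and 19220 in WT. In each of these subunits PHD2-deltaT replicate 2 was the highest of its group. Tcp1 had a log2 fold change of -0.00, Cct3 0.00, Cct4 -0.05 and Cct5 0.04.

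PHD2-deltaT replicate 2 was the highest of the 3 PHD2-deltaT libraries in 7 of 7 subunits, in 25 of all 36 genes (69.4%) and in 34.2% of all genes tested. The summed CCT counts were 123893, 134619 and 123128 in PHD2-deltaT, against 128318 and 128271 in WT. Both WT libraries lay between the extremes of PHD2-deltaT, and the group means differed by -0.843% of the WT mean. PHD2-deltaT replicate 2 also had the highest total of normalized counts, 20253007, and the CCT subunits made up 0.665% of it against 0.617% and 0.632% of the other PHD2-deltaT libraries. The part of the library in this pattern was not tested.

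**Figure D3:**
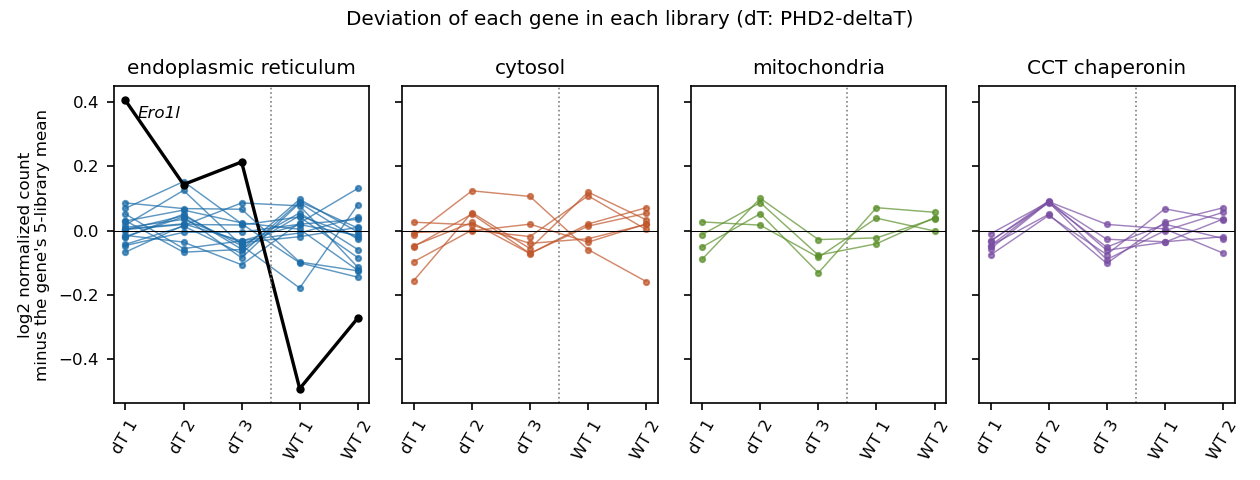
Log2 deviation of each gene from its own mean over the 5 libraries, 1 panel per compartment, with libraries on the x axis (dT, PHD2-deltaT). Each line is 1 gene, Ero1l in black and Hspa1b left out, and lines only join the values of a gene since replicates have no order. In each of the 7 CCT lines replicate 2 is the highest PHD2-deltaT value, with a median deviation of 0.09 there, and 5 of the 7 lines have their highest value of all 5 libraries there. Ero1l separates the genotypes.

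Levels differed far more between genes than between genotypes. Per 1000 exon bases, taking all annotated exons, the mean normalized count over the 5 libraries was 32711 for Hsp90ab1 and 13477 for Hspa8, both constitutive cytosolic chaperones. Hspd1 came next at 9471. The most abundant ER genes on this per-length scale were Calr at 8869, P4hb at 5920 and Hspa5 at 5480. Ero1l was among the least abundant, at 479 in PHD2-deltaT and 308 in WT, under its substrate P4hb in both. Dnajb9 at 170 and Hspa1b at 6.68 were the lowest. The CCT subunits spread from 2666 for Tcp1 to 8164 for Cct5. Part of that spread is the annotated exon length, 5030 bases for Tcp1 and 2766 for Cct5. Not divided by length, their mean normalized counts were 13412 and 22581, the lowest and highest of the subunits. Together the 36 genes made up 2.58% to 2.69% of all normalized counts of a PHD2-deltaT library and 2.69% to 2.71% of a WT library.

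**Figure D4:**
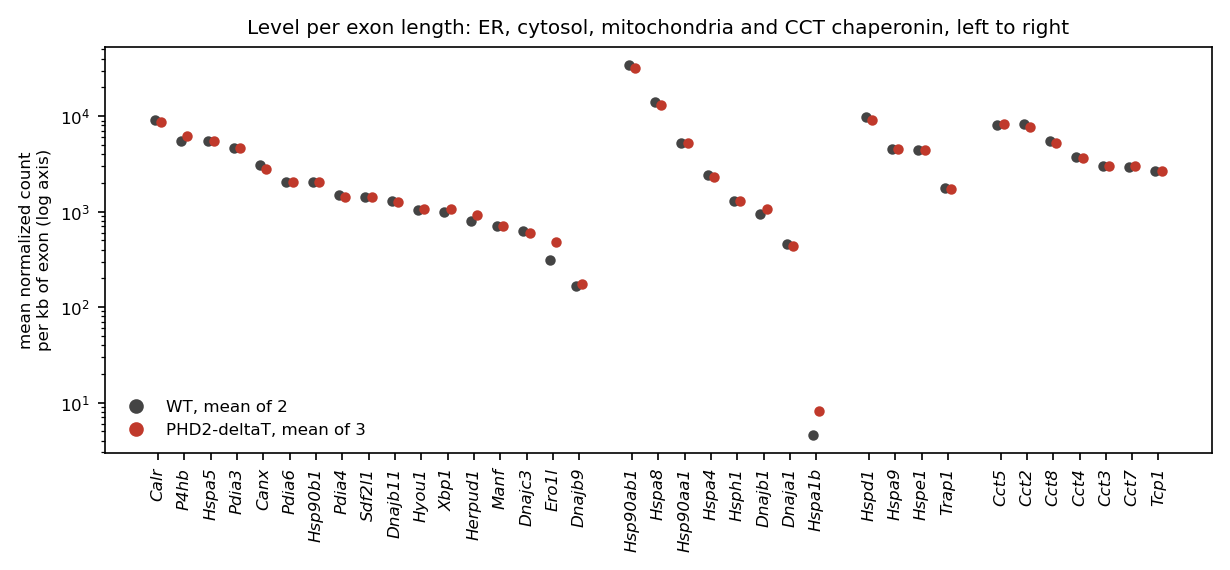
Mean normalized count per 1000 exon bases of each gene in PHD2-deltaT and WT on a log axis, grouped by compartment. Hsp90ab1 leads at 32711 over all libraries and Hspa1b is lowest at 6.68, and the paired points of most genes lie on each other.

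Counts of some genes can hold reads of neighbours, because whether counting used strand is not given in the sources used here. Exon bases shared with another gene were 16.9% in Tcp1, 15.7% in Hsp90b1, 10.8% in Dnaja1 and 9.25% in Manf. They were 0 in Ero1l, P4hb and Herpud1.

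Genes that work beside these chaperones were read from the same fit, in lists by role. Over all these lists 6 of 139 genes tested were called (4.32%), near the 4.0% of all genes tested. Of 13 ER stress sensors and regulators, 2 were called higher and none lower, with a median log2 fold change of -0.02. In this list 4 had an unadjusted p under 0.05. Groups did not overlap for 7 of the 13 (53.8%), 4 higher and 3 lower, beside 30.5% of all genes tested. Over the 13 genes, log2 fold changes ran from -0.37 to 0.96, with 5 positive and 8 negative. Both called genes act late in the branch that slows translation, and whether that branch changed as a whole was not tested. Trib3, a pseudokinase induced by that branch, had 311, 301 and 271 normalized counts in PHD2-deltaT, against 166 and 137 in WT (log2 fold change 0.96 ± 0.14 SE, adjusted p = 0.000369). Ppp1r15a, the phosphatase subunit that restores translation, had 1090, 971 and 1108 in PHD2-deltaT, against 792 and 725 in WT (0.48 ± 0.09 SE, adjusted p = 0.00443). Without WT replicate 2 Ppp1r15a lost its call (adjusted p = 0.0875). The sensors themselves, chosen here after their values were seen, had log2 fold changes of -0.02 for Ern1, -0.09 for Atf6 and -0.06 for Eif2ak3, and Atf4, the transcription factor of that branch, had 0.18 (adjusted p = 0.185).

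Among 28 other ER folding and glycan quality control genes, 2 were called higher and none lower, with a median log2 fold change of -0.02. In this list 5 had an unadjusted p under 0.05. Both called genes encode catalytic subunits of collagen prolyl hydroxylase, the enzyme whose other subunit is the P4hb product. They are also known hypoxia-inducible genes. P4ha1 had 5317, 4240 and 4490 normalized counts in PHD2-deltaT, against 1833 and 2234 in WT. The groups lay far apart, and the log2 fold change was 1.20 ± 0.10 (SE; adjusted p = 1.08e-06). P4ha2 had 52.9, 19.3 and 33.0 in PHD2-deltaT, against 4.03 and 5.94 in WT (adjusted p = 0.00389). It lay near the bottom of the table, so its fold is imprecise. None of 18 genes of ER-associated degradation was called (limma-trend), with 1 at an unadjusted p under 0.05. The smallest p there were those of Edem3 (log2 fold change -0.21, adjusted p = 0.193) and Dnajb12 (0.17, adjusted p = 0.338). None of 19 genes of ER translocation, signal peptide processing or transport out of the ER was called in the same fit. Of these, 2 had an unadjusted p under 0.05. Sec24d (0.33, adjusted p = 0.194) and Srp14 (0.16, adjusted p = 0.325) had the smallest p there.

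Outside the ER, 1 of 30 heat shock factors and cytosolic co-chaperones was called higher and none lower, with a median log2 fold change of 0.04. In this list 5 had an unadjusted p under 0.05. Bag3, an Hsp70 co-chaperone in selective autophagy, had 200.0, 200.7 and 210.7 normalized counts in PHD2-deltaT, against 155.0 and 123.8 in WT. Its log2 fold change was 0.55 ± 0.15 (SE; adjusted p = 0.0450), but it lost the call in each fit that left out 1 PHD2-deltaT library (adjusted p of 0.0656 to 0.111) and without WT replicate 2 (adjusted p = 0.467). Bag2, a related co-chaperone, had 0.35 (adjusted p = 0.0605). Hsf1, the main heat shock factor, had a log2 fold change of 0.06. Of 18 genes of mitochondrial folding and quality control, 1 was called higher and none lower, with a median of 0.05. In this list 3 had an unadjusted p under 0.05. Lonp1, the matrix protease that removes damaged proteins, had 5354, 4869 and 5444 in PHD2-deltaT, against 4131 and 4150 in WT (0.33 ± 0.07 SE, adjusted p = 0.0122). Leaving out WT replicate 1 (adjusted p = 0.0983) or WT replicate 2 (adjusted p = 0.107) ended its call. None of 13 prefoldin, tubulin cofactor and remaining CCT genes was called by limma-trend and none reached an unadjusted p under 0.05. Pfdn5 had 0.13 and Pdcl -0.15, and Cct6a, the CCT subunit outside the fixed set, had -0.04.

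**Figure D5:**
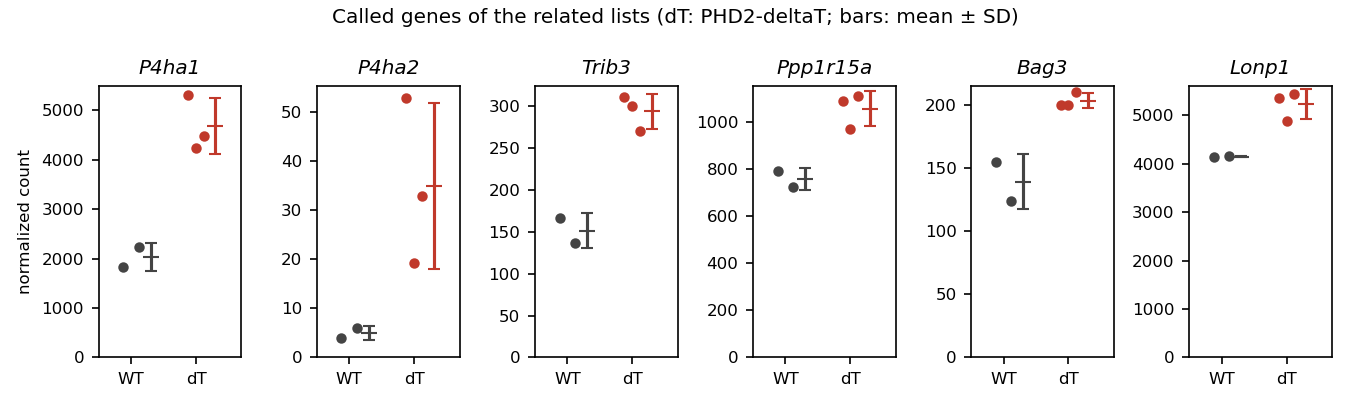
Normalized count of the 6 called genes of related folding pathways in each of the 5 libraries, with a horizontal line at each group mean. In each panel the 3 PHD2-deltaT values lie above both WT values.

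Plasma cells hold a large ER, so markers of antibody-forming and other cells were read beside the ER genes. Of 8 plasma cell markers 5 had a row, and their summed level overlapped between the groups, at 13831 to 16259 normalized counts in PHD2-deltaT and 14705 to 15207 in WT. Most of that sum was Irf4 (log2 fold change -0.03), which activated T cells also express. Without it the other 4 summed to 140.2 to 194.6 in PHD2-deltaT and 72.5 to 90.2 in WT. Of these, Igkc and Prdm1 were called higher, the latter also known in effector T cells, Derl3 and Sdc1 (-0.17) were not called, and Jchain, Mzb1 and Tnfrsf17 had no row. Of the B cell markers 7 had a row, 2 of them called higher (H2-Ab1 and Cd74), while Cd79a, Ms4a1 and Pax5 had none. Itgax was the 1 of 8 myeloid and dendritic markers with a row, at 81.9 to 98.3 in PHD2-deltaT and 39.3 to 43.6 in WT. It was called higher (log2 fold change 1.06, limma-trend, adjusted p = 0.00752). Of 4 CD4 T cell markers 3 had a row, and of 4 natural killer markers 2. All of these had positive log2 fold changes, from 0.29 for Foxp3 to 1.38 for Klrb1c, and none was called. The mitochondrial transcripts mt-Nd1, mt-Co1 and mt-Cytb were lower in PHD2-deltaT, with log2 fold changes of -0.62, -0.52 and -0.47. Jun was higher (0.46). Ier2 (0.17), Egr1 (0.14) and Fos (0.00), listed with Jun as marks of sample handling, were not called, and their groups overlapped. The part of these in the values of Ero1l and the related genes was not tested.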

How the data were processed

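Sorted CD8 T cells gave 3 PHD2-deltaT and 2 WT paired-end libraries (RNeasy Plus Mini and Ovation SoLo kits, per the labels' protocols). The genome build was mm10, and the tools named were HTSeq 0.9.1, STAR 2.5.3 and Trimmomatic 0.36, per the submitters' processing notes. The authors deposited normalized counts, a signal. How it was scaled is not given in the sources used here. Besides these, the authors' table holds log2 fold changes and adjusted p-values (FDR), with the FDR blank for 225 of 11564 genes. In every library each value was a whole multiple of 1 step (tolerance 1e-06). Constants of 1.30 to 1.85 accounted for 99.6% to 99.7% of the resulting whole numbers, against 54.1% to 77.0% by chance, and gave the inferred reads. No count test was run, since raw counts were not used here.

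The 11534 genes that reached 10 in 2 or more libraries entered the test. Their log2(value + 1) was modelled on genotype alone by limma 3.58.1 in R 4.3.3, with a mean-variance trend (limma-trend) and 3 residual degrees of freedom. Tests were two-sided, Benjamini-Hochberg adjusted over all genes tested, and called under 0.05. Fold changes on this scale understate the change of low genes. The fit was also run on simulated counts with independent libraries and changes of a single size, which does not check smaller changes or technical replicates. Gene names turned into dates (17) were restored from gene IDs. Positions and exon lengths came from the annotation of mm10, and promoters from RefSeq. Figures used Python 3.11.15 and matplotlib 3.10.9.

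The genes and lists were chosen with earlier results of these data known. All 5 values were printed for called genes and for the 3 with the smallest p in each compartment. Of each related list, called genes were named, otherwise the 2 with the smallest p. Other genes with all values printed (Hspa5, Canx, Hsp90ab1) and Hsf1, Ero1lb, Cct6a, Bag2, Afg3l2, Atf4 and the sensors were chosen after their values were seen. Replicates were numbered in label order. Alternatives were other pseudocounts, filters and scalings, array weights, robust eBayes, a fit without the trend, and leaving out each library.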

Additional observations from a re-analysis of the deposited data

How the results depend on the processing

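Across 14 alternatives (pseudocounts of 0.5 and 5, no filter, a filter at 50, TMM and quantile scaling, no trend, robust eBayes, array weights, each of 5 libraries left out), the 36 chaperone and folding genes gave the same count of calls in each compartment, with 1 exception. The filter at 50 removed Hspa1b, so 35 of them were tested there. Without the trend, no ER gene was called (0 in place of 1), 96 of all genes were called (76 higher, 20 lower) and 2 genes of the related lists. With 1 library left out, calls over all genes ran from 244 to 523 (209 to 362 higher, 35 to 161 lower) and those of the related lists from 3 to 8, the lowest all without WT replicate 2. When a WT library was left out, the lone one was assumed to vary like the others. Of the 35 uncalled genes, 15 changed the sign of their fold change in at least 1 alternative, and the median of the ER genes ran from -0.03 to 0.02. Ppp1r15a, P4ha2, Bag3 and Lonp1 were also not called without the trend (adjusted p of 0.0994 to 0.197). Bag2 was called with array weights and without PHD2-deltaT replicate 2, and Afg3l2 (adjusted p = 0.123) without the latter. No paired analysis was possible because the labels give no replicate numbers. Hspa1b, with the lowest mean of the 36 genes, had the widest interval.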
